A study of Mus musculus with 12 samples.

Results

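Glycolysis splits glucose into pyruvate, and this report covers 9 genes of that pathway together with Gpd1, the gene of the cytosolic glycerol-3-phosphate dehydrogenase that drains one glycolytic intermediate. The 10 genes (Hk1, Gpi1, Pfkm, Pfkp, Aldoa, Pgk1, Eno2, Pkm, Ldha and Gpd1) were taken by symbol from a table of 15759 entries, and all 10 were found in it and passed the filter on low values. They were chosen by their normalized counts and fold changes in these same 12 libraries, as known from earlier results, so their differences between groups are given below as descriptions, without p-values.

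Spinocerebellar ataxia type 1 (SCA1) follows from an expanded CAG repeat in Atxn1. The study sequenced the cortex of 12-week-old SCA1 KI mice and their wild-type (WT) littermates. Beside it the study set cerebellar data of the same age, reanalysed from an earlier publication of its laboratory. Its methods describe macrodissection and poly-adenylated RNA for both tissues. Region and data set therefore coincide, and their effects on levels cannot be told apart. The 12 libraries form 4 groups of 3, namely cortex WT, cortex SCA1 KI, cerebellum WT and cerebellum SCA1 KI. The question was which transcripts change in each region and whether the regions change alike.

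SCA1 KI mice carry an Atxn1 allele with 154 CAG repeats beside one with 2, from the endogenous locus and thus in every cell that uses Atxn1. All groups were on the C57BL/6J background, and the labels give no other allele or treatment for any of them. The labels list males, whereas the methods of the study describe males and females combined. Nothing ties a cortex library to a cerebellum library of the same mouse, and the p-values of the other genes measure only the spread between these samples. Libraries are named by the letter (cortex) or number (cerebellum) that the table gives them.

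Values are normalized counts, which are reads per gene scaled by 1 size factor per library, and levels are compared between genes only after division by exon length. The log2 fold change (LFC) was fitted with limma on log2(normalized count + 1) over all 12 libraries, with its standard error (SE). A differentially expressed gene (DEG) had a Benjamini-Hochberg adjusted p under 0.05 over 15369 genes and an absolute LFC over 0.25.

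The libraries held 29520855 to 51311309 reads on genes. Cortex SCA1 KI library A stood apart from E and F (chi-square per gene 33.5 and 36.6, against 10.5 between E and F), and cerebellum WT library 2 stood apart from 4 and 6 (27.2 and 21.5, against 9.70). Sums of the markers of the main neurons followed the labels of the tissues. Cortical excitatory neuron markers summed to 102286 to 105473 in cortex WT and 18769 to 22361 in cerebellum WT. Purkinje cell markers summed to 44352 to 47565 and 298798 to 374369. Markers of thalamus and habenula differed between the genotypes. In the cerebellum 6 of 9 were lower DEGs (median LFC −1.91), beside 4.44% of all genes, and the mean of Tcf7l2 fell from 1978.5 to 227. In the cortex 2 of 9 were higher and 1 lower, beside 4.82% and 10.8%, and Pou4f1 rose from 4.20 to 271. Of 10 forebrain interneuron markers 3 were lower DEGs in the cerebellum and 0 higher, and of 10 striatal markers 2 and 0. There the means of Vip and Sst fell from 97.7 to 1.49 and from 586 to 56.8. In the cortex 4 and 3 markers of these lists were lower DEGs and 0 higher. Choroid plexus markers summed to 38388 to 122380 in cerebellum WT and 7490 to 125547 in cerebellum SCA1 KI. Whether the dissection differed between the genotypes was not tested. In both regions whole tissue was sequenced, so fewer cells of a type and less RNA per cell cannot be told apart.

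In glycolysis, hexokinase traps glucose as glucose 6-phosphate, glucose-6-phosphate isomerase and phosphofructokinase prepare it for cleavage by aldolase, and the lower steps run through phosphoglycerate kinase, enolase and pyruvate kinase to pyruvate, which lactate dehydrogenase interconverts with lactate. Gpd1 reduces dihydroxyacetone phosphate, a product of aldolase, to glycerol 3-phosphate, which carries electrons to the mitochondrial enzyme Gpd2 or enters glycerolipid synthesis. Neurons, astrocytes and oligodendrocytes use these isozymes in different proportions, and Gpd1 is a classical enzyme marker of oligodendrocytes in the rodent brain.

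The 9 glycolysis genes differed little between SCA1 KI and WT, whereas Gpd1 was far lower in the SCA1 KI cortex and somewhat higher in the SCA1 KI cerebellum. In the cortex 1 of the 10 genes was a higher DEG (Gpi1) and 1 a lower DEG (Gpd1), where 4.82% of all genes tested were higher DEGs and 10.8% lower DEGs. In the cerebellum 1 was a higher DEG (Gpd1) and none a lower one, beside 0.917% and 4.44% of all genes. The median LFC of the 9 glycolysis genes was 0.00021 in the cortex and 0.06 in the cerebellum, against −0.0028 and −0.0049 over all genes. When the dependence of the counts on GC content and transcript length was removed in each library, the split of all DEGs into higher and lower was 1030 to 1310 in the cortex, in place of 741 to 1661, and 537 to 585 in the cerebellum, in place of 141 to 683.

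**Figure D1:**
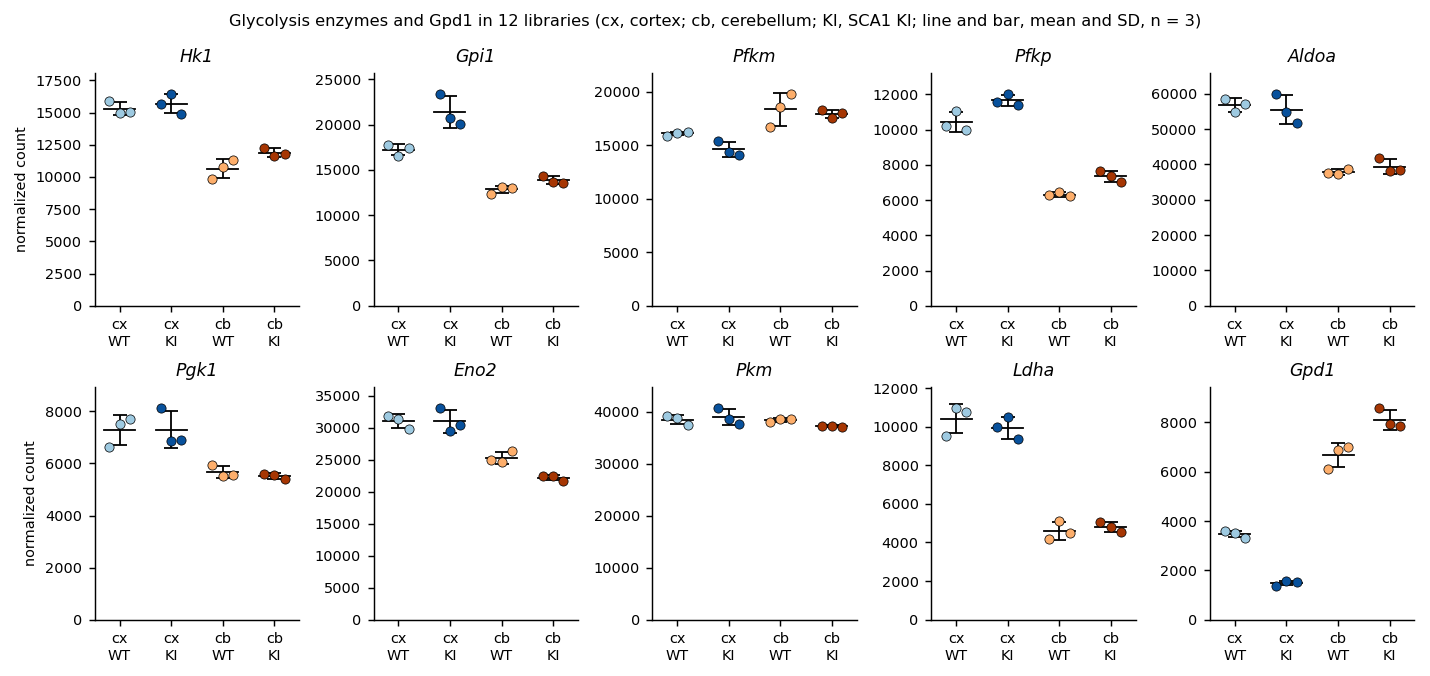
Normalized counts (y axis, from 0) of the 10 genes in each library of the 4 groups (x axis). Points are libraries in the order of their letters or numbers, and line and bar give the mean and SD of 3 libraries. The 3 SCA1 KI cortex libraries of Gpd1 lie between 1379 and 1569, below all WT cortex libraries, and its 3 SCA1 KI cerebellum libraries lie above all WT cerebellum libraries.

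Gpd1 (chromosome 15, 99717515 to 99725005 on GRCm38, plus strand) had 3598, 3504 and 3330 normalized counts in cortex WT libraries B, C and D. In cortex SCA1 KI libraries A, E and F it had 1379, 1569 and 1517. All SCA1 KI cortex libraries thus lay below all WT ones, as they did for 18.0% of the genes tested. The mean fell from 3478 ± 136 (SD, n = 3) to 1488 ± 98.3, an LFC of −1.23 (SE 0.07), or 0.428 times the WT level.

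In the cerebellum Gpd1 stood at 6121, 6900 and 7021 in WT libraries 2, 4 and 6. SCA1 KI libraries 1, 3 and 5 had 8570, 7930 and 7833, all above the WT libraries, which held for 14.3% of genes. The mean was 6681 ± 489 (SD, n = 3) in WT and 8111 ± 401 in SCA1 KI, an LFC of 0.28 (SE 0.07). The LFC stayed between 0.22 and 0.32 when single libraries were left out, but Gpd1 was no longer a DEG in 6 of 12 such fits, those without cerebellum SCA1 KI library 1, 3 or 5, cerebellum WT library 2 or 6, or cortex WT library C.

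The cortical LFC of Gpd1 minus the cerebellar one was −1.51 (SE 0.10). Libraries below WT in the cortex and above WT in the cerebellum were found for 1.72% of the genes tested, and 0.176% were lower DEGs in the cortex and higher DEGs in the cerebellum. In WT tissue Gpd1 was the only one of the 10 genes that was a DEG with a lower level in the cortex, with 0.521 times the cerebellar count (LFC −0.94, SE 0.07). An antisense gene, Gm16537, shares 384 exon bases with Gpd1, and reads of the pair cannot be told apart where the counting took no account of strand.

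Markers of oligodendrocytes were read beside Gpd1. Their summed counts overlapped in the cortex, with 84758 to 144702 in WT and 91036 to 105706 in SCA1 KI, and 0 of 10 passed the limma threshold there (0 also in DESeq2 and in edgeR, and 0 at an unadjusted p under 0.05). In the cerebellum, where Gpd1 was higher, the sum was lower in SCA1 KI, with 162993 to 163886 against 192011 to 285917 in WT. The highest WT sum was that of library 2, which stood apart, and the other two WT libraries had 192011 and 212521. All 10 markers lay below WT in every SCA1 KI cerebellum library, as did 17.5% of all genes tested. Their median LFC was −0.46, and 9 of 10 had an unadjusted p under 0.05 in limma, beside 2664 of 15369 genes. Cldn11, a myelin tight junction protein, passed the limma threshold. In edgeR 1 of the 10 was a lower DEG and in DESeq2 4 were. The part of oligodendrocytes in the changes of Gpd1 was not tested.

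Astrocyte markers summed to 275175 to 282660 in cortex WT and 136923 to 201558 in cortex SCA1 KI, where 7 of 10 were lower DEGs, and library A was the lowest. In the cerebellum they summed to 183269 to 198396 and 166335 to 171617, with 1 of 10 a lower DEG. No defining marker of either cell type was at 0 in any group. Without cortex SCA1 KI library A and cerebellum WT library 2 Gpd1 was still a DEG in the cortex but not in the cerebellum. In all 12 fits that left out 1 library the cortical LFC of Gpd1 lay between −1.26 and −1.17. The part of astrocytes in its cortical change was not tested.

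Hk1, the main hexokinase of neurons (chromosome 10, 62268855 to 62379908), had 15880, 14967 and 15059 normalized counts in cortex WT and 15678, 16412 and 14924 in cortex SCA1 KI, with overlapping libraries and an LFC of 0.03 (SE 0.06). Cerebellar counts were 9836, 10808 and 11291 in WT and 12255, 11634 and 11757 in SCA1 KI. The SCA1 KI cerebellum libraries were all higher, as for 14.3% of genes tested, but the LFC of 0.16 (SE 0.06) did not meet the threshold. Hk1 accounted for 89.3% to 94.7% of hexokinase reads per kb in every library.

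Gpi1, glucose-6-phosphate isomerase (chromosome 7, 34201330 to 34230336), was the only glycolysis gene of the 10 that met the threshold between the genotypes in a region, although with the dependence on GC content and length removed Pfkp in both regions and Hk1 in the cerebellum (LFC 0.27) met it too. Its counts were 17729, 16534 and 17392 in cortex WT and 23348, 20742 and 20022 in cortex SCA1 KI. Every SCA1 KI cortex library lay above WT, as for 13.0% of genes tested. The mean rose from 17218 ± 616 (SD, n = 3) to 21371 ± 1750, an LFC of 0.31 (SE 0.06). Library A was the highest, and without it the LFC was 0.24 and Gpi1 was not a DEG. Gpi1 was also not a DEG in the cortex without library A and cerebellum WT library 2 together. In the cerebellum the LFC was 0.11 (SE 0.06), with 12389, 13164 and 12971 in WT and 14380, 13653 and 13604 in SCA1 KI. All SCA1 KI libraries were above WT there too, as for 14.3% of genes tested. Gpi1 shares 741 exon bases with Gm26762 on the other strand.

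The 250 bases before transcript starts that RefSeq annotates (GRCm38.p6) were read for short motifs, since ataxin-1 works in a complex with the repressor capicua, which recognises TGAATG and TGAACG, and since hypoxia-inducible factors recognise ACGTG, the core of the hypoxia response element, which also lies inside the E-box CACGTG. Both strands were searched in 32851 windows, of which 17 belonged to 9 of the 10 genes (all but Gpd1). TGAATG was found in 10.9% of all windows and in 2 of the 17 (Gpi1 and Pkm). TGAACG was in 3.28% of all windows and in 1 of the 17 (Pkm). ACGTG was in 16.6% and in 7 of the 17 (Aldoa, Ldha, Pfkm, Pgk1 and Pkm). CACGTG was in 6.02% and in 2 of the 17 (Ldha and Pfkm). Several genes have more than 1 window, so shares of windows and counts of genes are not alike. A match is a run of letters and says nothing about binding. The windows of Gpi1, the glycolysis gene with the largest cortical LFC of the 9, and of Ldha and Pgk1, which hold several ACGTG matches, are shown 5′ to 3′ with the matches on either strand in capitals.
Gpi1, chr7:34230337-34230586, minus strand: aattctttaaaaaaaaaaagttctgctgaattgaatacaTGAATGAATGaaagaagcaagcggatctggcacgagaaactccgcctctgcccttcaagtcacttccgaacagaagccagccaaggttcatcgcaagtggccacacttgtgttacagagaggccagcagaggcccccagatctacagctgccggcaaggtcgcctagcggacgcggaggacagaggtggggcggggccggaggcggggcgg
Ldha, chr7:46845554-46845803, plus strand: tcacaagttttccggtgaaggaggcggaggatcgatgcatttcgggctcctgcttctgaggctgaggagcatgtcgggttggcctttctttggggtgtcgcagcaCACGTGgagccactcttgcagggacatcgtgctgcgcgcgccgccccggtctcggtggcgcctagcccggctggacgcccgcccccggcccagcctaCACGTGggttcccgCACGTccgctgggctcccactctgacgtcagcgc
Pgk1, chrX:106186850-106187099, plus strand: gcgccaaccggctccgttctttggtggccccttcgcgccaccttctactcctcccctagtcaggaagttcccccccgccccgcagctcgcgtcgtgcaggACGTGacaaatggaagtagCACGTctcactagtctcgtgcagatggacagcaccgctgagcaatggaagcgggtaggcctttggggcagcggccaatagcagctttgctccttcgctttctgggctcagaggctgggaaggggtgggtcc
In Gpi1 the capitals are 2 overlapping copies of TGAATG. In Ldha they are 5 matches of ACGTG on the 2 strands, of which 4 form 2 E-boxes, and in Pgk1 they are 2. The counts of Ldha and Pgk1 overlapped between the genotypes in both regions, as described below.

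The phosphofructokinases, which catalyse the committed step, had LFCs of opposite sign in the cortex. Pfkm, the muscle type and the main one in both regions (chromosome 15, 98092589 to 98132451), had 15913, 16175 and 16218 normalized counts in cortex WT and 15386, 14378 and 14061 in cortex SCA1 KI. The SCA1 KI libraries all lay below WT, as for 18.0% of genes tested, with an LFC of −0.14 (SE 0.06) that did not meet the threshold. In the cerebellum Pfkm ranged from 16734 to 19759 in WT and from 17577 to 18262 in SCA1 KI, within the WT range.

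Pfkp, the platelet type (chromosome 13, 6579768 to 6648777), had 10211, 11085 and 10002 in cortex WT and 11594, 12005 and 11410 in cortex SCA1 KI. Its cerebellar counts were 6269, 6451 and 6230 in WT and 7638, 7364 and 7030 in SCA1 KI. It was thus above WT in all SCA1 KI libraries of both regions, as were 13.0% of genes tested in the cortex and 14.3% in the cerebellum. Its LFCs were 0.16 (SE 0.05) and 0.22 (SE 0.05), both under the limit of 0.25. With the dependence on GC content and length removed the LFCs were 0.30 and 0.28, and Pfkp was a higher DEG in both regions. The share of Pfkp in phosphofructokinase reads per kb was 12.1% ± 0.56 in cortex WT and 14.7% ± 0.54 in cortex SCA1 KI, and 7.40% ± 0.56 and 8.66% ± 0.30 in the cerebellum (SD, n = 3). Pfkp shares 748 exon bases with Pitrm1 on the other strand.

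Aldoa, the muscle type aldolase (chromosome 7, 126795234 to 126800751), was the most abundant of the 10 genes per kb. It had 58482, 54685 and 57218 normalized counts in cortex WT and 59809, 54792 and 51791 in cortex SCA1 KI, and in the cerebellum 37537, 37333 and 38780 in WT and 41729, 38177 and 38271 in SCA1 KI. The libraries overlapped in both regions, with LFCs of −0.04 and 0.06 (SE 0.07).

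Pgk1, phosphoglycerate kinase (chromosome X, 106187100 to 106203699), ranged from 6642 to 7699 in cortex WT and from 6868 to 8119 in cortex SCA1 KI, with the 2 means 3 counts apart (7291 and 7294). Cerebellar values ranged from 5522 to 5959 and from 5408 to 5608. Aldoa, Pgk1 and Ldha each have 2 named pseudogenes in the annotation, which could share reads with them.

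Eno2, the neuronal enolase (chromosome 6, 124760053 to 124769673), had 31914, 31319 and 29796 in cortex WT and 33061, 29550 and 30498 in cortex SCA1 KI, with means of 31010 and 31036. In the cerebellum it had 24931, 24624 and 26361 in WT and 22431, 22452 and 21733 in SCA1 KI. Here all SCA1 KI libraries lay below WT, as for 17.5% of genes tested, with an LFC of −0.19 (SE 0.06) that did not meet the threshold. Eno2 made up 96.3% to 97.8% of enolase reads per kb in every library. This share is uncertain, since the count of Eno1 in it is uncertain, as described below.

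Pkm, pyruvate kinase (chromosome 9, 59656368 to 59679375), was the flattest gene across regions, with 38517 ± 912 in cortex WT, 39028 ± 1528 in cortex SCA1 KI, 38457 ± 357 in cerebellum WT and 37269 ± 140 in cerebellum SCA1 KI (SD, n = 3). As for 17.5% of genes tested, the 3 SCA1 KI cerebellum libraries, from 37108 to 37364, lay below the WT ones, from 38048 to 38708, an LFC of −0.05 (SE 0.05). With the dependence on GC content and length removed, this LFC was 0.08, of the opposite sign. Pkm shares 767 exon bases with Gm49759 on the same strand.

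Ldha, the lactate dehydrogenase subunit that favours the formation of lactate (chromosome 7, 46841475 to 46855627), had 9536, 10950 and 10751 in cortex WT and 9973, 10483 and 9346 in cortex SCA1 KI. Cerebellar values were 4167, 5100 and 4493 in WT and 5053, 4786 and 4551 in SCA1 KI. The genotypes overlapped in both regions, with LFCs of −0.07 and 0.07 (SE 0.08), whereas the regions were far apart.

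**Figure D2:**
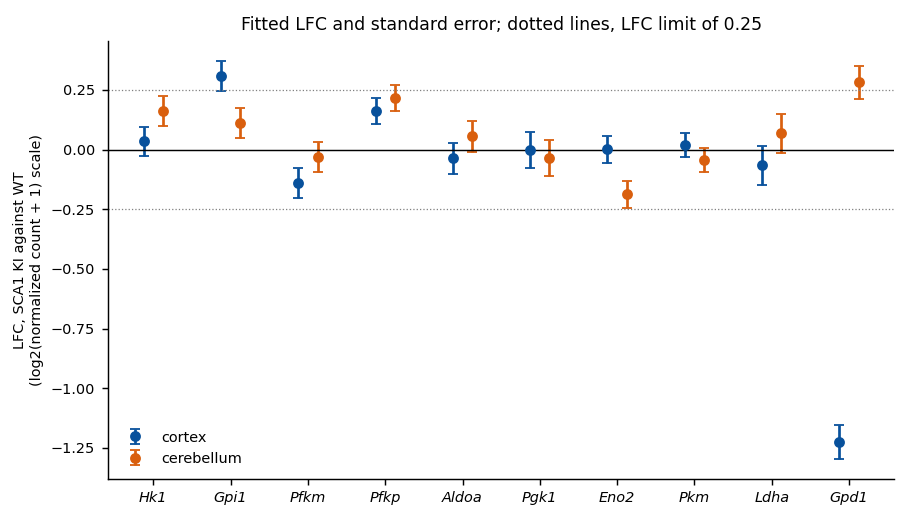
LFC of SCA1 KI against WT (y axis, on the log2(normalized count + 1) scale) of the 10 genes (x axis) in the cortex (blue) and the cerebellum (orange). Bars give 1 SE of the fit over 12 libraries, and the dotted lines mark the LFC limit of 0.25. Gpd1 lies at −1.23 in the cortex and 0.28 in the cerebellum, and the 9 glycolysis genes lie between −0.19 and 0.31.

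The glycolysis genes differed more between the libraries of the regions than between the genotypes. Since the cerebellar data were published before, region and data set cannot be told apart in these differences. In WT tissue 7 of the 9 were DEGs with a higher level in the cortex (Hk1, Gpi1, Pfkp, Aldoa, Pgk1, Eno2 and Ldha), and none was lower in this fit, while 31.0% of all genes were higher and 30.7% lower. The cortical excess was largest for Ldha, 2.27-fold (LFC 1.19, SE 0.08), followed by Pfkp (LFC 0.72) and Aldoa (LFC 0.58). Pkm (LFC 0.0020) and Pfkm (−0.19) were the 2 that did not meet the threshold. With the dependence on GC content and length removed Eno2 (LFC 0.19) was not a DEG and Pfkm (−0.29) was a lower one, as Pfkm also was without cerebellum WT library 2 (−0.25).

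Per kb of exon, the order of levels in cortex WT was Aldoa, Pkm, Eno2, Pfkm, Pgk1, Ldha, Gpi1, Hk1, Gpd1 and Pfkp, from 19510 down to 779 normalized counts per kb. Pgk1 and Ldha overlapped, and the other neighbours did not. In cortex SCA1 KI Gpd1 fell to the last place, with 503 ± 33.2 per kb against 871 ± 22.7 for Pfkp (SD, n = 3). In the cerebellum Gpd1 ranked 6 in WT (2256 ± 165 per kb) and 5 in SCA1 KI (2739 ± 135), where it had passed Pgk1.

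The share of Gpd1 in the reads of Gpd1 and Gpd1l did not overlap between the genotypes in the cortex and overlapped in the cerebellum. Of the reads per kb of Gpd1 and its cytosolic homologue Gpd1l, Gpd1 took 49.0%, 47.4% and 45.7% in cortex WT and 23.7%, 26.2% and 28.8% in cortex SCA1 KI. In the cerebellum it took 73.5% to 75.5% in WT and 74.7% to 75.9% in SCA1 KI. The ratio of Gpd1 to Gpd2, the mitochondrial enzyme of the same shuttle, was 1.12 ± 0.02 in cortex WT and 0.454 ± 0.022 in cortex SCA1 KI. In the cerebellum it was 2.80 ± 0.08 and 2.94 ± 0.07 (SD, n = 3), and every SCA1 KI library (2.89 to 3.02) lay above WT (2.71 to 2.85). How often shares or ratios of other genes separate the genotypes in this way was not counted. Of single genes, 18.0% lay below WT in every SCA1 KI cortex library and 14.3% above WT in every SCA1 KI cerebellum library. The regional difference in these shares and ratios of Gpd1 was not tested.

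**Figure D3:**
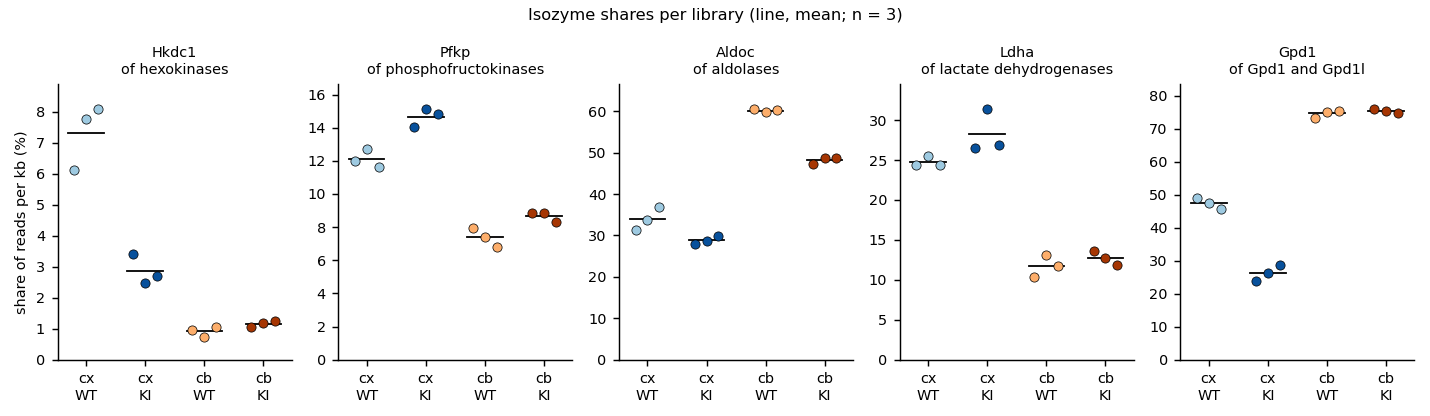
Share of 1 isozyme in the reads per kb of its family (y axis, percent, from 0) in each library of the 4 groups (x axis), with the mean of 3 libraries as a line. Gpd1 averages 47.4% in cortex WT and 26.3% in cortex SCA1 KI, against 74.7% and 75.4% in the cerebellum, and Aldoc averages 60.1% and 48.2% in the cerebellum.

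The deviations of the 10 genes were compared over the 12 libraries after the mean of the region was subtracted from log2(normalized count + 1), which leaves genotype, dissection and library effects shared among the points. Pearson's r between pairs of the 9 glycolysis genes had a median of 0.20 over 36 pairs and ranged from −0.58 (Pfkp with Eno2) to 0.79 (Eno2 with Pkm). Gpd1 had r = −0.75 with Gpi1 and r = 0.63 with Pfkm. Of 12664 genes whose mean was 100 normalized counts or more, those most like Gpd1 were Ptpn3 (r = 0.988), Cux1 (0.988), Atf6 (0.985), Zfp703 (0.982) and Plcb1 (0.979). Their cortical LFCs ran from −0.80 to −0.69 and their cerebellar LFCs from 0.12 to 0.22. The genes most like the mean pattern of the 9 were Dph2 (r = 0.911), Tbrg1 (0.885), Fez1 (0.883), Kdm1b (0.866) and Eif3d (0.863), whose LFCs in both regions lay between −0.02 and 0.08.

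The rest of the pathway was read from textbook lists. Of 28 glycolysis genes 24 were tested, and in the cortex 1 was a higher DEG, the Gpi1 described above, and 3 were lower DEGs, beside 4.82% and 10.8% of all genes. Hkdc1, a hexokinase-like gene, fell from 747 ± 94.2 to 285 ± 48.3 normalized counts (LFC −1.39, SE 0.16, adjusted p = 1.11e-04 from limma). Aldoc, the aldolase of astrocytes and Purkinje cells, fell from 32750 ± 4097 to 25157 ± 726 (LFC −0.37, SE 0.08, adjusted p = 0.00455). Ldhb, the other lactate dehydrogenase subunit, fell from 14991 ± 939 to 12033 ± 1111 (LFC −0.32, SE 0.07, adjusted p = 0.00803). Pfkl, the liver type phosphofructokinase, had an LFC of −0.249 (adjusted p = 0.00537), just short of the limit. Hkdc1 and Aldoc were called without any 1 of the 12 libraries, whereas Ldhb, with an LFC of −0.25, was not called without cortex SCA1 KI library E.

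In the cerebellum 2 of the 24 were lower DEGs, beside 4.44% of all genes. Aldoc fell from 64069 ± 1768 to 41080 ± 628 (LFC −0.64, SE 0.08, adjusted p = 3.23e-04 from limma), which lifted the share of Aldoa in aldolase reads per kb from 39.8% to 51.8% while Aldoa itself overlapped between the genotypes. Pgam2, the muscle phosphoglycerate mutase, was near the detection limit, with 13.7, 9.77 and 5.82 normalized counts in WT and 0, 0 and 1.94 in SCA1 KI. With the dependence on GC content and length removed, 3 genes (Hk1, Hkdc1 and Pfkp) were higher DEGs beside the same 2 lower ones. Hkdc1 was the only one of the 24 whose LFC differed between the regions (by −1.88, adjusted p = 6.65e-04), where 8.15% of all genes did.

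The other glycolysis genes with a mean of at least 100 did not pass the threshold in either region. Tpi1, triose phosphate isomerase, had LFCs of 0.06 in the cortex and 0.05 in the cerebellum, and Gapdh 0.07 and 0.01. Pgam1, the brain phosphoglycerate mutase, had 0.03 and −0.0065, and Bpgm 0.05 and −0.14. Of the minor isozymes Hk2 had LFCs of −0.21 and 0.06, Eno3 0.21 and −0.04, and Eno1 −0.0069 and −0.10. Eno1, at 350 normalized counts in cortex WT, is uncertain, since a near-identical copy of it can share its reads.

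Of 17 regulators of glycolysis tested in the cortex, 8 were lower DEGs and 0 higher, beside 10.8% and 4.82% of all genes, and their median LFC was −0.22. They included the transcription factors Foxk1 (LFC −0.37, SE 0.06, adjusted p = 0.00110 from limma) and Foxk2 (−0.34, adjusted p = 0.00190), which promote glycolytic genes, and the nuclear receptors Esrrb (−0.84, adjusted p = 0.00244), Esrrg (−0.34, adjusted p = 0.00264) and Esrra (−0.30, adjusted p = 0.00775). Epas1, a hypoxia-inducible factor, had −0.36 (adjusted p = 0.00722), and Pfkfb3 and Tigar, named after their values were seen, had −0.47 and −0.27. With the dependence on GC content and length removed 4 of 16 were lower DEGs (Esrra, Esrrb, Esrrg and Pfkfb3), and the median LFC was −0.03. Leaving out single libraries ended the call of Pfkfb3 without cortex SCA1 KI library A, E or F or WT library C (LFC −0.47 to −0.27) and that of Tigar without WT library C or SCA1 KI library F (−0.24 in each).

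In the cerebellum 0 of these 17 passed the limma threshold, and 1 had an unadjusted p under 0.05. DESeq2 and edgeR on the recovered reads also called 0 there, and fitting each region on its own called 1 lower DEG. The LFC differed between the regions for Foxk1 (by −0.36), Esrrb (−0.90) and Esrrg (−0.32), with adjusted p of 0.0213, 0.0221 and 0.0425 from limma. The difference was not called for Foxk1 without cerebellum SCA1 KI library 1 or 3 or cortex SCA1 KI library F (−0.36 to −0.33) or with the dependence on GC content and length removed (−0.23), and for Esrrb without cerebellum SCA1 KI library 1 or 3 or WT library 6 (−0.93 to −0.82). For Esrrg it was called in 3 of 12 fits with 1 library left out, those without cerebellum WT library 2, cortex WT library D or cortex SCA1 KI library A, and it was not called in edgeR (−0.30), with TMM normalization (−0.30) or with the dependence on GC content and length removed (−0.32). Hif1a, the principal hypoxia-inducible factor, had LFCs of 0.10 and 0.05, neither past the threshold. The 9 glycolysis genes in the same cortex libraries included 1 higher DEG and no lower one, and the other 15 on the glycolysis list 0 higher and 3 lower.

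Around Gpd1, a list of NADH shuttle genes and mitochondrial glutamate carriers gave 3 lower DEGs of 12 in the cortex, beside the 10.8% of all genes. One was Gpd1 itself, which was chosen with its values known. The others were the glutamate carriers Slc25a18 (LFC −0.51, SE 0.08, adjusted p = 0.00124 from limma) and Slc25a22 (−0.28, adjusted p = 0.0101), and no other gene of the list was a DEG there. Gpd2 had LFCs of 0.08 in the cortex and 0.21 in the cerebellum, and Gpd1l 0.12 and 0.23, neither past the threshold in either region, though both were higher DEGs in the cerebellum with the dependence on GC content and length removed. Slc25a22 was not called in that fit (−0.10) or without cortex SCA1 KI library F (−0.24). The malate-aspartate enzymes Mdh1, Mdh2, Got1 and Got2 had LFCs between −0.08 and 0.17 in the cortex, and none passed. In the cerebellum Gpd1 alone of the 12 was a DEG.

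Of 15 tested genes on a list around glycerol 3-phosphate and the first steps of glycerolipid synthesis, 2 were higher and 2 lower DEGs in the cortex. Of all genes 4.82% and 10.8% were. The acyltransferase genes Gpat3 (LFC 0.45, adjusted p = 0.0186 from limma) and Agpat4 (0.30, adjusted p = 0.00990) rose, while Gpam (−0.32, adjusted p = 0.0210) and Agpat3 (−0.34, adjusted p = 0.00219) fell. The call was lost for Agpat4 without cortex WT library D (0.24), for Gpat3 without WT library B or D or SCA1 KI library E (0.36 to 0.43), and for Gpam without SCA1 KI library A (−0.21) or WT library C (−0.26). With the dependence on GC content and length removed Gpam (−0.22) and Agpat3 (−0.18) were not called. In the cerebellum 0 of 15 passed with limma, DESeq2 or edgeR, and 1 had an unadjusted p under 0.05. Gk, glycerol kinase, which makes glycerol 3-phosphate from glycerol, had LFCs of −0.10 and 0.07 that did not pass.

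Beyond pyruvate, Pdp1, the phosphatase that activates pyruvate dehydrogenase, was 1 lower DEG among 13 genes of that list in the cortex, beside 10.8% of all genes. Its counts fell from 10116 ± 2623 to 4060 ± 502 (LFC −1.29, SE 0.14, adjusted p = 5.41e-05 from limma) and the gene was a DEG without any 1 of the 12 libraries, while in the cerebellum the LFC was −0.03. The difference between the regions was −1.27 (adjusted p = 0.00184). Pdha1, the catalytic subunit, had a cortical LFC of 0.22 (adjusted p = 0.0161), under the LFC limit.

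Counts of DEGs upstream and at the branches stand beside those over all genes. In the cortex 4.82% of all genes were higher DEGs and 10.8% lower, and in the cerebellum 0.917% and 4.44%. Of 18 glucose and lactate transporters 1 was a lower DEG in the cortex, the inositol transporter Slc2a13 (LFC −0.40, adjusted p = 0.0190 from limma), and 2 were higher DEGs in the cerebellum, Slc2a6 (0.38, adjusted p = 0.0246) and Slc2a9 (1.00, adjusted p = 0.0412). The main carriers Slc2a1 and Slc2a3 had cortical LFCs of −0.25 and 0.02 and did not pass. Of 9 pentose phosphate genes Pgd alone rose in the cortex (0.27, adjusted p = 0.0177). Of 19 glycogen genes the branching enzyme Gbe1 rose in the cortex (0.32, adjusted p = 0.0334), and the phosphorylase Pygm (−0.44, adjusted p = 0.00378), Ppp1r3c (−0.34, adjusted p = 0.0257) and Phkg1 (−0.34, adjusted p = 0.0377) fell, with Ppp1r3c also lower in the cerebellum (−0.36, adjusted p = 0.0412).

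Except Pygm, each of these calls was lost when some single library was left out. Those libraries were cortex SCA1 KI A and WT C for Slc2a13 (LFC −0.37 to −0.32), and cerebellum SCA1 KI 1 and 3 and WT 2 and 4 for Slc2a6 (0.31 to 0.39). For Slc2a9 they were all 3 cerebellum SCA1 KI libraries, cerebellum WT 6, cortex WT C and cortex SCA1 KI E and F (0.73 to 1.11). Pgd was lost without cortex SCA1 KI F (0.21), and Gbe1 without cerebellum SCA1 KI 3, any cortex WT library or cortex SCA1 KI A or F (0.26 to 0.35). Ppp1r3c was lost in the cortex without SCA1 KI A or WT C or D (−0.31 to −0.26), and in the cerebellum without any SCA1 KI library there, WT 2 or 6, or cortex SCA1 KI E or F (−0.37 to −0.31). Phkg1 was lost without any cerebellum SCA1 KI library, cerebellum WT 6, cortex WT B or C, or cortex SCA1 KI A or E (−0.35 to −0.27).

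**Figure D4:**
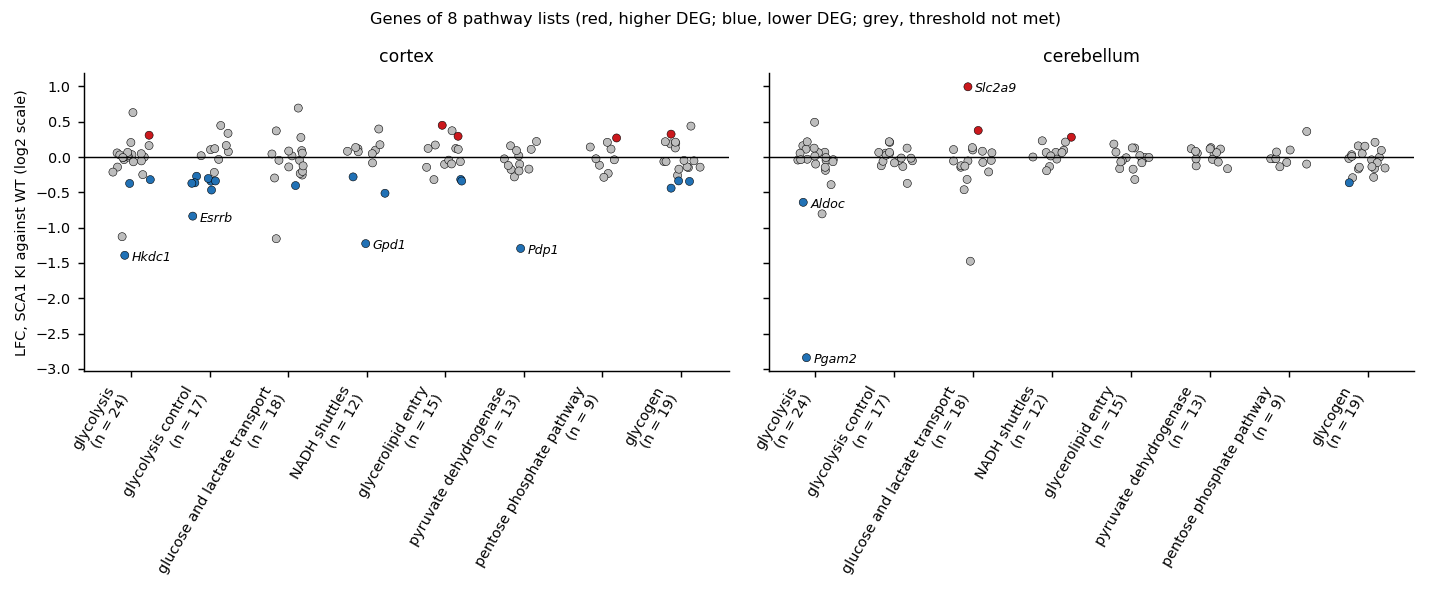
LFC of SCA1 KI against WT (y axis, log2 scale) of the tested genes of 8 textbook lists (x axis) in the cortex (left) and the cerebellum (right). Each point is a gene, red for a higher DEG, blue for a lower DEG and grey where the threshold was not met. In the cortex blue points gather in the control list (8 of 17), and Hkdc1, Gpd1 and Pdp1 lie lowest of the DEGs, at −1.39, −1.23 and −1.29.

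Beside these counts, astrocyte markers were lower in the SCA1 KI cortex, as given above, and sums of cortical excitatory neuron markers were 69499 to 80611 against 102286 to 105473 in WT. Aldoc, Slc25a18 and Ppp1r3c are known to be rich in astrocytes. The part of these cells in the list counts was not tested.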

How the data were processed

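The authors aligned 75 bp paired-end reads with STAR to mm10, used featureCounts for counts per gene and DESeq2 for normalization (versions not given in the sources used here). The deposited table holds the signal of 15759 entries in 12 libraries, each value a read count scaled by 1 size factor per library. All values of all libraries (100%) came within 0.001 of whole reads, and these were recovered for edgeR and DESeq2. No replicate pair was as alike as sampling noise alone would make it (chi-square per gene 7.54 to 36.6).

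R 4.3.3 with limma 3.58.1 (moderated by empirical Bayes, trended by mean) was fitted on log2(normalized count + 1) to 15369 genes whose mean reached 10, with a mean for each of 4 groups. The pseudocount understates the LFC of low genes. Exon lengths, overlaps and coordinates are from GENCODE vM21. Alternatives were pseudocounts of 0.5 and 5, other filters, edgeR 4.0.16, DESeq2 1.42.0, TMM normalization, other LFC limits, each region alone, centring, removal of each library's trend on length and GC content, and 12 fits that left out 1 library. Leaving out cortex SCA1 KI library A and cerebellum WT library 2 together was added after the data were seen. The steps were tested on simulated data.

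The 10 genes and all lists were chosen with earlier results of these data known. Named were all 10, of each list the DEGs and genes with a regional difference (at most 6 of the smallest p per list and region), the glycolysis isozymes with a mean of at least 100, and the 5 genes most like Gpd1 or the other 9.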

Additional observations from a re-analysis of the deposited data

Results flagged for a closer look

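For 9 genes the LFC of SCA1 KI against WT differed between the cortex and the cerebellum, at an adjusted p under 0.05 for the difference in limma. Gpd1 is among them by the choice of the 10 genes, so its difference of −1.51 (cortex minus cerebellum) is a description.

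Among the other 8 genes, the hexokinase-like Hkdc1 differed by −1.88 and Pdp1, the pyruvate dehydrogenase phosphatase, by −1.27, and both differences were called in all 12 fits that left out 1 library. Of the regulators, Esrrb differed by −0.90, Foxk1 by −0.36 and Esrrg by −0.32. The inositol transporter Slc2a13 differed by −0.54. Of the acyltransferases Gpat3 differed by 0.62, the only difference above 0 among the 9, and Agpat3 by −0.33. The call was lost for Slc2a13 without cerebellum SCA1 KI 1 or 5, cerebellum WT 2 or 6, cortex WT B or C, or cortex SCA1 KI A or F (−0.55 to −0.43). For Gpat3 it was lost without any cerebellum SCA1 KI library, cerebellum WT 4 or 6, cortex WT B or D, or cortex SCA1 KI E or F (0.53 to 0.67), and for Agpat3 without any cerebellum SCA1 KI library, cerebellum WT 4, or cortex WT B or D (−0.35 to −0.29). Esrrb, Foxk1 and Esrrg also lost it without the libraries named beside them in the results.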

How the results depend on the processing

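No paired analysis was possible because the library columns carry no replicate number of the labels. Of the values of the 10 genes under the alternatives, 716 moved by less than the spread between replicates and 24 by more, and no called value changed sign. Many of the 716 could not move. Other LFC limits, other filters, fitting each region alone and leaving out a library of a group not compared all keep the LFC as it was. Of the values of the other named genes 763 kept the call and 149 lost it. The count of DEGs on the glycolysis list was 4 in the cortex, 2 in the cerebellum, 1 for the difference between the regions and 17 between the regions of WT. With an LFC limit of 1 these were 1, 1 and 4 in the cortex, the cerebellum and WT. In the cerebellum a minimum mean of 100 gave 1, since fewer genes were tested, and removal of the trend on length and GC content gave 5. The difference between the regions was called for 2 genes with DESeq2, with the trend removed, and without cortex SCA1 KI library A and cerebellum WT library 2. Without single libraries the counts ranged from 3 to 5, 2 to 2, 1 to 2 and 16 to 18. On the other lists 21 genes were DEGs in the cortex and 3 in the cerebellum. The cortex gave 12 when fitted alone, 1 with an LFC limit of 1, and 14 to 22 without single libraries. The cerebellum gave 5 with the trend removed (5 higher and 0 lower, in place of 2 and 1), 1 without the 2 libraries that stood apart, 0 with an LFC limit of 1, and 0 to 3 without single libraries. The cause of these shifts was not tested. A group of 3 libraries limits the precision of every LFC here, and size factors make all values relative.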
